A study of Mus musculus with 9 samples.

Results

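The genes described here are 52 mouse genes of the interferon response and of antigen presentation, followed through an array study of the colon. They were chosen by name, as known members of the pathway, with earlier results of these data known. The annotation of the array gave a row of their own to 49 of the 52 genes, with 89 rows in all among 34945 rows that carry exactly 1 gene symbol. Isg15, Ifi44 and H2-DMb1 had no such row, so they have no rank and are counted only among the promoters. The members were grouped by role into 5 transcription factors, 3 sensors of viral RNA, 20 antiviral effectors, 6 inducible GTPases, 11 genes of class I presentation and 7 genes of class II presentation.

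Whole colons were profiled on 9 microarrays, 1 array per sample. The 5 mutant samples came from Rosa26-CreERT2-Ptch1fl/fl mice, in which tamoxifen lets the Cre act on floxed alleles of Ptch1, the receptor that silences Hedgehog signalling when no ligand is bound. The 4 wildtype samples came from Rosa26-CreERT2-Ptch1+/+ mice, so both groups carried the inducible Cre and both received tamoxifen, 1 mg on each of 5 days. The strain was a mix of C57BL/6 and Balb/c, colons were taken at day 12, counted from the start of tamoxifen, and the labels used here state neither age nor sex. Rosa26 drives the Cre body-wide, so deletion was not limited to a cell type of the colon. Since the labels do not tie each array to an animal of its own, p-values cover only the spread between these arrays. The number that ends each array's name runs from 1 to 7 in mutants and from 5 to 10 in wildtypes, so array number and genotype are partly confounded.

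Interferons are secreted signals that cells release on sensing viral or bacterial products. Their receptors activate JAK kinases and STAT proteins, which enter the nucleus with or without IRF9 and switch on interferon-stimulated genes. Type I and III interferons act mainly through a complex with STAT2 and IRF9 that binds the interferon-stimulated response element (ISRE), while interferon-γ acts mainly through the gamma-activated site (GAS). In the intestine, these genes are known for defence against enteric viruses and for the display of peptides by epithelial and immune cells.

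What a gene name carries in this table was checked before any gene was read. Among the 22 members with at least 2 rows, the first 2 rows of a gene lay a median of 6.58 percentile points apart in the strength of the difference between genotypes, against 23.3 points over 8988 other genes. Direction and level were not shared in this way. The first 2 rows of a gene moved in the same direction in 10 of 22 members (45.5%) and in 50.9% of other genes. Their mean log2 levels were a median of 2.37 apart in members and 1.65 in other genes. Deviations of the arrays from their group means had a median correlation of 0.02 between such rows in members and 0.00 in other genes. The ranks of the first 2 rows of a gene had a Spearman correlation of 0.68 in members and 0.25 in other genes. Member rows lie high in the ranking, which alone narrows the gap between any 2 of them. Both rows changed, as defined below, in 0 of the 22 members, and a single row in 3. A name in this table therefore carries strength in part, and of a named gene the results below give strength alone. Whether names and values were joined correctly when the table was made is not settled. Positions of single arrays, given below for changed rows, describe the values stored under that name and cannot be read as a trait of the gene. No direction, fold change or abundance is given for a named gene, and neither the tissue nor the deletion of Ptch1 could be checked against levels of named genes. Each call likewise belongs to the row that carries the name.

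Strength was measured by the absolute moderated t of mutant against wildtype in limma, and expressed as a percentile among the 34945 rows, with 100 for the strongest difference. Rows at a Benjamini-Hochberg adjusted p under 0.05, over all 45037 rows other than controls, are called changed. Of the 34945 rows with 1 symbol, 5.19% changed.

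Promoters of the members are shown next, since the ISRE and the GAS are sequences through which interferons act on many interferon-stimulated genes. The promoter table of RefSeq (GRCm38.p6) held windows from 250 bases before to 50 bases after a start site for 40 of the 52 members, and for 27025 genes in all. The core of the ISRE was searched as GAAANNGAAA and the GAS as TTCNNNGAA, on both strands, and matches may overlap one another. The ISRE core was found in 18 of 40 members (45%), against 3.99% of all genes in the table. The GAS was found in 9 of 40 (22.5%), against 9.55% of all genes. By role, the ISRE core was found in 5 of 5 inducible GTPases, 2 of 2 RNA sensors, 8 of 15 antiviral effectors, 2 of 9 class I genes, 1 of 5 transcription factors and 0 of 4 class II genes with a window. A match describes these letters only and is not evidence of binding.

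The stretches below come from changed members with a match before the start site. Ifit1, whose row did not change, and B2m, which lay just outside the threshold, are added. Of the other changed members, Oasl2, Psmb9 and Psmb10 had neither motif in their windows and Parp14 had no window. Erap1 had an ISRE core, but no match that ended before the start site. Each is 60 bases long, 5′ to 3′ along the gene's strand, ends before the start site, and has every match to either motif in capitals.

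Stat2 (chr10:128270251-128270310, plus strand): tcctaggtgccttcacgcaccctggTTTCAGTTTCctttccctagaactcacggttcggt

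Irf1 (chr11:53769898-53769957, plus strand): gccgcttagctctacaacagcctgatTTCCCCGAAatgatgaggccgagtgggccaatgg

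Isg20 (chr7:78913325-78913384, plus strand): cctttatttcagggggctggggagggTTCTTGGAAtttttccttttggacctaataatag

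Oas1a (chr5:120907526-120907585, minus strand): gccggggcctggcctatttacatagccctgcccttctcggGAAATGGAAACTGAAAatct

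Igtp (chr11:58199485-58199544, plus strand): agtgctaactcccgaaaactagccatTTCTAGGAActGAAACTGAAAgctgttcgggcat

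Irgm2 (chr11:58214876-58214935, plus strand): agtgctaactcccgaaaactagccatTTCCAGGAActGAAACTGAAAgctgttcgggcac

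Irgm1 (chr11:48871421-48871480, minus strand): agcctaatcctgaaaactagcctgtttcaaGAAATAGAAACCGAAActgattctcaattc

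Ifit1 (chr19:34640779-34640838, plus strand): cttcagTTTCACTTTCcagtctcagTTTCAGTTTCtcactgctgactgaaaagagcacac

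B2m (chr2:122147523-122147582, plus strand): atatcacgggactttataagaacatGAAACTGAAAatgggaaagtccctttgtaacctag

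In Igtp and Irgm2, a GAS is followed after a short gap by an ISRE core, and 58 of the 60 bases of their stretches are identical. The ISRE core ended 24 bases before the start site in Igtp, 54 in Irgm2, 14 in Irgm1, 4 in Oas1a, 75 in Ifit1, 129 in B2m and 212 in Stat2, taking the match nearest to the start. Irf1 and Isg20 had a GAS and no ISRE core in their windows. Among the members whose row changed, 6 of 11 with a window held an ISRE core and 5 of 11 a GAS, and among those with rows but none changed the counts were 11 of 26 and 4 of 26. Rows of members with an ISRE core had a median percentile of 90.3 (26 rows), rows of members with a GAS alone 89.9 (7 rows), rows of members with neither 62.5 (36 rows) and rows of members with no window 79.7 (20 rows). Motif and role went together here. Of the 36 rows with neither motif, 13 were those of H2-K1 and H2-D1, and the other 23 had a median of 70.6. Outside all gene lists used here, 928 rows of genes with an ISRE core had a median percentile of 49.6 and 7.11% changed, and 24353 rows of genes with neither motif had a median of 50.6 and 5.30% changed.

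Taking all members, their rows lay high in the ranking by strength. Of 89 rows, 12 changed (13.5%, against 5.19% of all rows with 1 symbol), and these belonged to 12 genes. The median percentile of member rows was 82.0, with quartiles of 61.5 and 90.1, and that of all other rows was 49.9. Percentiles 90 to 100 held 23 member rows and percentiles 80 to 90 held 24, while percentiles 0 to 10 held 2. At an unadjusted p under 0.05 there were 47 member rows (52.8%), against 21.1% of all rows. Mutant and wildtype arrays did not overlap in 21 member rows (23.6%), against 9.78% of all rows. Counted by gene, 12 of 49 members had at least 1 changed row, against 8.43% of all genes, and among genes with 1 row only it was 9 of 27 members and 5.14% of all genes. Unadjusted p-values of the 12 changed rows ran from 3.4e-08 for Isg20 to 0.00218 for Oas1a in limma. No test of the list as a whole was run.

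**Figure D1:**
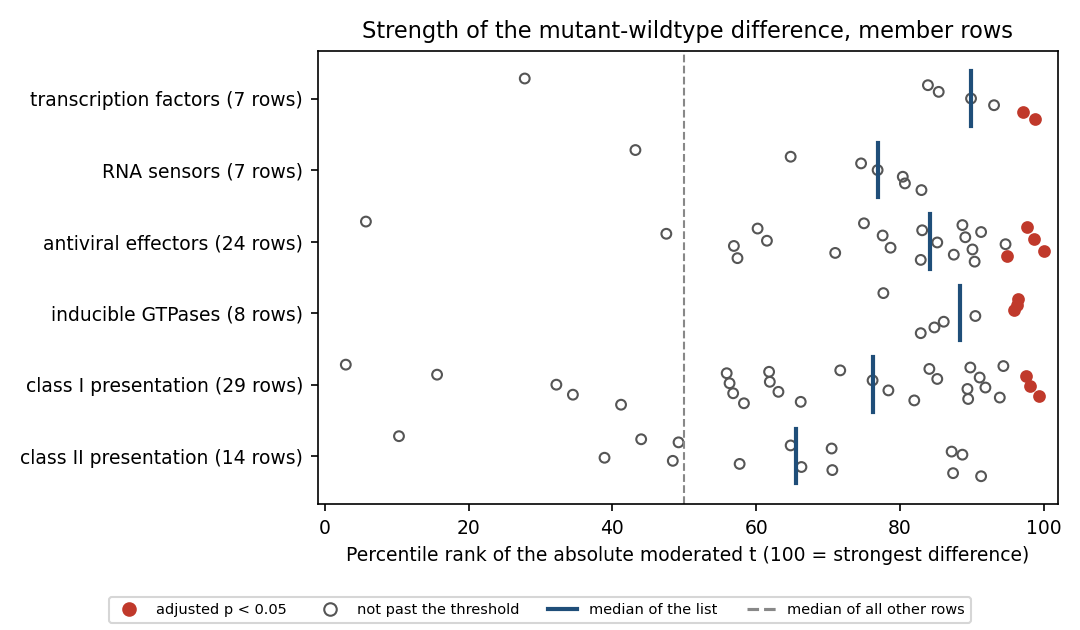
Percentile rank of the absolute moderated t for each of the 89 member rows (x axis, 100 is the strongest difference between mutant and wildtype) by role (y axis). Filled points passed an adjusted p under 0.05, vertical bars mark the median of each role and the dashed line the median of all other rows (49.9). Medians ran from 65.5 for class II presentation to 89.9 for transcription factors.

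Transcription factors had a median percentile of 89.9 over 7 rows, of which 2 changed (28.6%, against 5.19% of all rows). Their order against the GTPases (88.3) depended on the setting, since the GTPases had the higher median in 8 of 19 other settings. Irf1, a factor induced by interferon-γ that switches on GTPases and class I genes, changed with an absolute t of 5.97 (limma adjusted p = 0.0179, percentile 98.8). Stat2, a subunit of the complex that binds the ISRE, had 2 rows at percentiles 97.1 and 93.1, of which the stronger changed (absolute t 4.88, limma adjusted p = 0.0317). Irf8, a factor of myeloid cells, had rows at 89.9 and 83.9, and Irf9, the DNA-binding part of the same complex, had 1 row at 85.4 (limma adjusted p = 0.162). Irf7, which amplifies type I interferon production, stood apart with its row at 27.8 (limma adjusted p = 0.852). In a fit with array number as a covariate it did not, with the same row at percentile 96.0 (limma adjusted p = 0.193). Groups did not overlap in 5 of the 7 rows, against 9.78% of all rows.

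For the changed rows, the arrays are given on a scale that is free of sign and level. On it, 0 is the wildtype mean and 1 the mutant mean of the row. Since these rows were chosen by their t in the same arrays, separation of the groups follows in part from that choice. Here and below it describes the rows and adds no evidence of a difference. In the row named Irf1 the mutants lay at 0.88, 1.21, 1.2, 0.88 and 0.83 and the wildtypes at 0.37, 0.19, -0.16 and -0.40. The groups were thus clear of each other, with the largest wildtype value at less than the smallest mutant value by 0.46 of the distance between the means. In the row named Stat2 the mutants lay at 1.08, 1.07, 0.59, 0.88 and 1.38 and the wildtypes at 0.00, 0.17, -0.24 and 0.08, again without overlap, and mutant replicate 3 was nearest to the wildtypes.

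Sensors of viral RNA in the cytoplasm had no changed row (0 of 7, against 5.19% of all rows), which does not set so few rows apart. Ifih1 (MDA5), Ddx58 (RIG-I) and Dhx58 (LGP2) had 7 rows with a median percentile of 76.9. This median was 13.5 when the rows of a gene were averaged before the fit. Of the 7 rows, 3 were at an unadjusted p under 0.05 by limma (42.9%, against 21.1% of all rows), and 0 with array number as a covariate. The strongest row was that of Ifih1 (absolute t 2.55, unadjusted p = 0.0304 and adjusted p = 0.199 by limma, percentile 83.0), and the groups overlapped in it. The rows of Ddx58 ranged from 64.8 to 80.4 and those of Dhx58 from 43.2 to 80.7.

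Antiviral effectors changed in 4 of 24 rows (16.7%, against 5.19% of all rows), with a median percentile of 84.2. Isg20, an exonuclease that degrades RNA, carried the row with the strongest difference of all 34945 (absolute t 16.56, limma adjusted p = 0.00105). Its arrays lay close together within each group, mutants at 0.96, 0.99, 1.1, 1.09 and 0.86 and wildtypes at 0.03, -0.04, -0.07 and 0.07. The gap between the groups was 0.79 of the distance between their means, the widest among the 12 changed member rows. The row passed in each of 17 other fits of separate rows. Without Isg20, the median percentile of the member rows was 81.3.

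Parp14, an ADP-ribosyltransferase, had a changed row (absolute t 5.82, limma adjusted p = 0.0192, percentile 98.7) and another row at 88.7. Mutants lay at 1.12, 1.25, 0.63, 1.16 and 0.84 in the changed row and wildtypes at 0.23, 0.2, -0.05 and -0.39, with no overlap. Oasl2, a relative of the 2′-5′ oligoadenylate synthetases, changed as well (5.19, limma adjusted p = 0.0266, percentile 97.7). Mutant replicate 4 lay at 0.46 in that row and the other mutants between 0.95 and 1.28, with wildtypes from -0.41 to 0.30. Oas1a, a synthetase of the messenger that activates RNase L, was the changed row closest to the threshold (4.19, limma adjusted p = 0.0494, percentile 94.9). Wildtype replicate 1 lay at 0.84 there, level with the lowest mutant, while the other wildtypes lay between -0.36 and -0.12.

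The remaining effectors had no changed row, although most ranked high. Bst2 (tetherin), which holds budding viruses on the cell surface, lay just outside the threshold (limma adjusted p = 0.0513, percentile 94.7). Then came the ubiquitin ligase and antibody receptor Trim21 (91.3 and 87.5), the GTPase Mx2 (90.4), Ifit3 (90.1), the nucleotide kinase Cmpk2 (89.1 and 77.6), Xaf1 (85.2 and 75), the synthetases Oas3 (83.1) and Oas2 (82.9), the ISG15 protease Usp18 (78.7) and the GTPase Mx1 (71.0). Lower in the ranking were Ifit2 (61.5) and Ifit1 (57.4), which bind viral RNA, the 3 rows of Rsad2 (viperin, 47.5 to 60.2) and Oasl1 (5.7). Effectors were thus found from the top of the ranking to its lowest percentiles.

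Inducible GTPases, which act in defence against intracellular pathogens, changed in 3 of 8 rows (37.5%, against 5.19% of all rows). All 8 rows lay at percentile 77.7 or above. Irgm1 (absolute t 4.67, limma adjusted p = 0.0362, percentile 96.5), Irgm2 (4.58, 0.0384, 96.3) and Igtp (4.46, 0.041, 95.9), the regulatory subfamily of these GTPases, had changed rows. The guanylate-binding protein Gbp3 had 1 row at 90.5 (limma adjusted p = 0.0957), Gbp2 had rows at 86.1 and 84.8, and Iigp1 rows at 82.9 and 77.7.

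In the rows that carry these 3 names, wildtype replicate 1 lay at 0.60 for Irgm1, 0.63 for Irgm2 and 0.34 for Igtp, and the other wildtypes lay between -0.46 and 0.23. The mutants lay between 0.67 and 1.43 for Irgm1, 0.62 and 1.42 for Irgm2, and 0.74 and 1.19 for Igtp. Groups overlapped for Irgm2, with a gap of -0.01, and did not for Irgm1 (0.07) and Igtp (0.40). The Irgm2, Irgm1 and Igtp genes are related in sequence, and whether their probe sets bind each other's transcripts was not tested.

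Class I presentation, the route that displays peptides from inside the cell, changed in 3 of 29 rows (10.3%, against 5.19% of all rows), with a median percentile of 76.2. Erap1, the peptidase that trims peptides in the endoplasmic reticulum, had the strongest of these rows (absolute t 6.55, limma adjusted p = 0.0145, percentile 99.3), and its other row was at 94.4 (limma adjusted p = 0.0542). Mutants lay at 0.70, 0.95, 1.32, 1.1 and 0.93 in the changed row, and wildtypes at -0.11, 0.45, -0.17 and -0.17. Wildtype replicate 2 was apart from the other wildtypes, but short of every mutant.

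The catalytic subunits of the immunoproteasome, which replace their constitutive counterparts under interferon, ranked together. Psmb10 (absolute t 5.43, limma adjusted p = 0.0233, percentile 98.1) and Psmb9 (5.09, 0.0279, 97.5) changed. Psmb8 had rows at 91.9 and 89.8 (limma adjusted p = 0.0812 and 0.103). The constitutive counterparts Psmb5, Psmb6 and Psmb7 had 3 rows, with a median percentile of 65.6. Of these 0 changed (against 5.19% of all rows), too few rows for a contrast of calls. Of 56 rows of the constitutive proteasome as a whole, 3 changed (5.36%) and the median was 51.2.

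For Psmb10 the mutants lay at 0.83, 0.89, 0.97, 1.21 and 1.1, and the wildtypes at 0.32, -0.49, -0.22 and 0.39. For Psmb9 they lay at 1.26, 1.49, 0.96, 0.55 and 0.74, and 0.15, -0.32, -0.11 and 0.27. Groups did not overlap in either row.

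**Figure D2:**
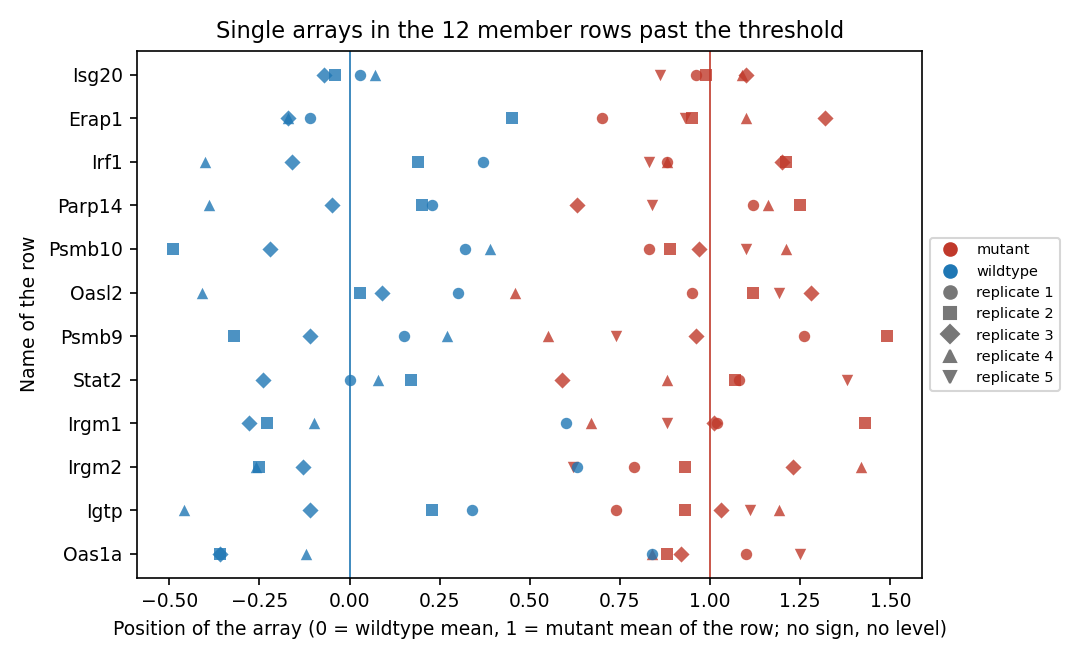
Each of the 9 arrays in the 12 changed member rows, on a scale where 0 is the wildtype mean and 1 the mutant mean of that row (x axis); colours give the genotype and marker shapes the replicate. Rows are ordered by p, and groups overlap for Irgm2 only. Wildtype replicate 1 lies at 0.60, 0.63 and 0.84 for Irgm1, Irgm2 and Oas1a.

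Other class I members had no changed row. B2m, the light chain of every class I molecule, had rows at 93.9 and 91.1 (limma adjusted p = 0.0597 and 0.0883), and Tapbp, which loads peptides, had rows at 89.5 and 89.4. Among the peptide transporter genes, Tap1 had 4 rows from 34.5 to 84.1 and Tap2 1 row at 71.7, and the class I transactivator Nlrc5 was at 78.4. The heavy chains H2-K1 and H2-D1 had 13 rows between them, of which 0 changed (against 5.19% of all rows), with a median of 61.8. Of these, 11 are probe sets with the suffix that marks possible binding to related transcripts, and the H2 heavy chains are close copies of one another, so single rows of these genes are uncertain. Without both genes, a choice made after their ranks were seen, class I presentation changed in 3 of 16 rows (18.8%, against 5.19% of all rows). The median percentile was then 89.6.

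Class II presentation, the route that displays peptides from outside the cell and is mostly found in immune cells, changed in 0 of 14 rows. Since 5.19% of all rows changed, a count of 0 in 14 rows does not set this role apart. At an unadjusted p under 0.05 by limma there were 4 rows (28.6%, against 21.1% of all rows), including all 3 rows of Ciita. The median percentile was 65.5. Ciita, the transactivator that switches the whole group on, ranked highest, with 3 rows at 91.3, 87.4 and 87.2 (limma adjusted p of the strongest = 0.0874, absolute t 3.47, unadjusted p = 0.00671, no overlap of groups). The genes it drives had lower ranks at their strongest rows in the fit without covariates. H2-Ab1 ranged from 48.4 to 88.7, H2-Aa from 10.3 to 49.2 and H2-Eb1 was at 70.6, while the invariant chain Cd74 was at 66.3 and the peptide exchange factor H2-DMa at 64.8 and 57.7. The 8 rows of the H2-Aa, H2-Ab1 and H2-Eb1 chains had a median of 48.8. With array number as a covariate, H2-Eb1 was at 97.5 and the highest row of H2-Ab1 at 92.4, with Ciita rows from 92.9 to 99.0. Rows of H2-Aa, Cd74 and H2-DMa were at 54.2 or below in that fit. Whether class II rows rank lower than the other members was not tested.

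Rows of 1 gene often landed at nearly the same place in the ranking. In 8 of the 22 members with several rows, all rows lay within 5 percentile points, namely Tapbp, Gbp2, Psmb8, B2m, Trim21, Stat2, Ciita and Erap1. The widest spread, 82.4 points, was that of the 9 rows of H2-D1, followed by Tap1 (49.6) and H2-K1 (44.0). The first 2 rows of a gene lay less than 10 points apart in 14 of the 22 (63.6%), against 25.9% of other genes. In 31 of 49 members every row lay above percentile 75. Of the 49, 27 had 1 row only, and the same share over all genes was not computed.

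**Figure D3:**
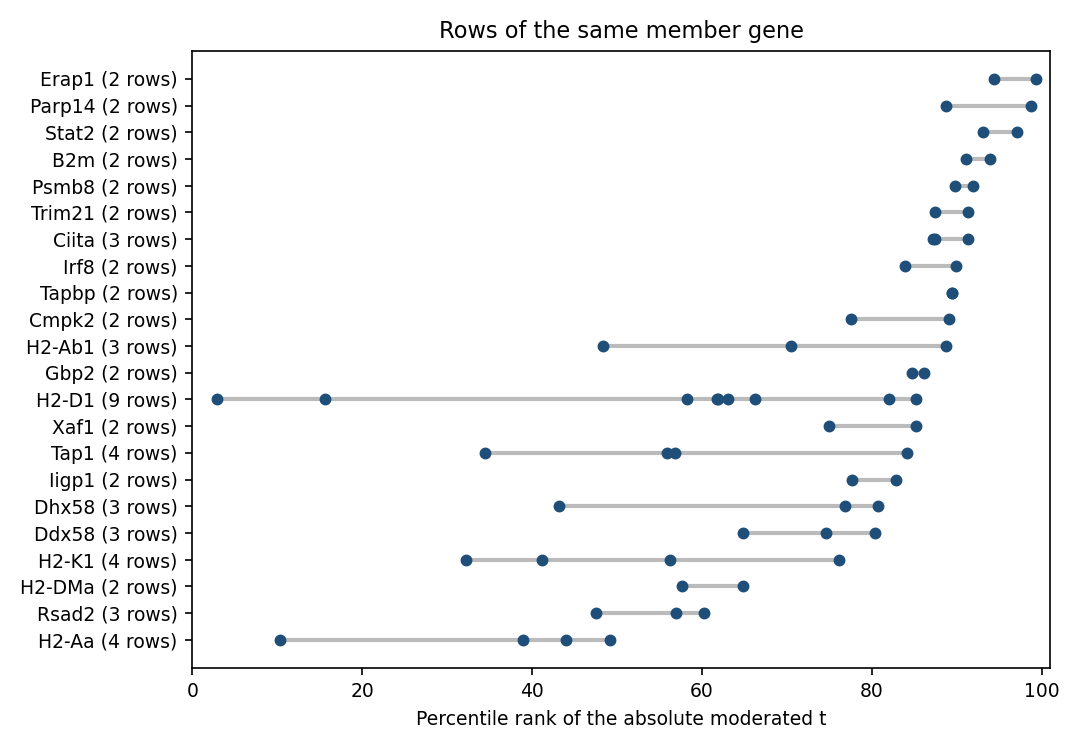
Percentile rank of the absolute moderated t (x axis) of every row of the 22 member genes with at least 2 rows (y axis, number of rows in brackets); grey lines join rows of a gene. Rows of Tapbp lie at 89.4 and 89.5, while those of H2-D1 run from 2.9 to 85.2.

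Genes upstream of the members were read as a pair of lists. Receptors, their kinases and brakes, such as Ifnar1, Ifngr1, Jak1 and Socs1, changed in 0 of 32 rows by limma (against 5.19% of all rows). At an unadjusted p under 0.05 they had 4 rows (12.5%, against 21.1% of all rows), and their median percentile was 47.6. Their strongest rows were those of the phosphatase Ptpn2 (limma adjusted p = 0.0528) and the kinase Tyk2 (0.0553). Interferon genes and the sensors and adaptors that induce them changed in 2 of 28 rows (7.14%, against 5.19% of all rows). At an unadjusted p under 0.05 by limma there were 12 (42.9%, against 21.1% of all rows). Both changed rows were those of Tlr3, the endosomal receptor for double-stranded RNA (limma adjusted p = 0.025 and 0.0335), and the median percentile of the list was 77.5. The adaptor Mavs (limma adjusted p = 0.052), the kinase Ikbke (0.0564) and the factor Irf3 (0.0633) were close to the threshold, while the rows of Ifng and Ifnb1 were at percentiles 30.4 and 9.0.

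Interferon-stimulated genes outside the 52 changed in 11 of 91 rows (12.1%, against 5.19% of all rows), with a median percentile of 78.2. The strongest were Casp4, which senses bacterial lipopolysaccharide (limma adjusted p = 0.0149), Ly6e (0.017), the nucleic acid sensor Zbp1 (0.0216), the necroptosis effector Mlkl (0.0235) and Slfn5 (0.0288). Other class I genes changed in 11 of 38 rows (28.9%, against 5.19% of all rows). All 3 rows of the chaperone Calr changed (limma adjusted p from 0.0122 to 0.0157), as did 2 of the 3 rows of Canx (0.0175 and 0.0187), H2-Q10 (0.0175), the chaperone Pdia3 (0.0236) and the peptidase Tpp2 (0.0265). Calr, Canx and Pdia3 serve protein folding in general and not class I molecules alone. Other class II genes changed in 4 of 49 rows (8.16%, against 5.19% of all rows, median percentile 43.1). These were rows of the cathepsins Ctsl and Ctsh and of Nfya, a subunit of a general CCAAT-binding factor.

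Marker genes of immune cells were read beside these results, because immune cells express many of the members. The markers were those of T and natural killer cells, B and plasma cells, macrophages and dendritic cells, and neutrophils. Of their 107 rows, 0 changed by limma (against 5.19% of all rows). At an unadjusted p under 0.05 there were 10 (9.35%, against 21.1% of all rows), and the median percentile was 41.9. Markers of the epithelium changed in 4 of 27 rows (14.8%, against 5.19% of all rows, median 67.6), of Cdx2 and Slc26a3. Markers of smooth muscle and fibroblasts changed in 1 of 26 (3.85%, median 64.8). In these bulk samples, fewer cells of a type and less RNA per cell cannot be told apart. Summed marker levels are not given, since names carry no level here, and the part of cell composition in the members' ranks was not tested.

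Single arrays had a strong hold on the count of changed rows, for the members and for the table alike. Without wildtype replicate 3, 1 of 89 member rows passed (1.12%) and 0.987% of all rows did. Leaving out wildtype replicate 4 gave 3 member rows, with 1.02% of all rows passing, and leaving out mutant replicate 2 gave 4 (1.77%). Without mutant replicate 3 or wildtype replicate 2 there were 5 each (1.76% and 2.87%). There were 8 without mutant replicate 5 (3.89%) and 9 without mutant replicate 1 (3.52%). More rows passed when mutant replicate 4 was dropped (14, with 5.28% of all rows) or wildtype replicate 1 (17, with 6.51%). Wildtype replicate 1 was the array nearest to the mutants in 7 of the 12 changed rows. Without wildtype replicate 3 the share of member rows that passed was nearly level with that of all rows, and the 1 row was that of Isg20. In the other fits, which have most of their arrays in common, the share of member rows was larger. Over the 9 fits the median percentile of the members stayed between 77.6 and 81.8. The row named Isg20 passed in all 9 fits, and Irf1 passed in 8 (limma adjusted p up to 0.0623). Erap1 and Parp14 passed in 7, Psmb10 in 6, Oasl2, Psmb9 and Stat2 in 3, Irgm1 and Irgm2 in 2, and Igtp and Oas1a in 1.

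Array number moved with genotype, and a fit with array number as a covariate left few calls anywhere. By limma it called 1 member row, Isg20 (adjusted p = 0.0204), and 0.0773% of all rows. At an unadjusted p under 0.05, 31 of 89 member rows remained in that fit, against 14.3% of all rows, and the median percentile of the members was 72.4. By role this median was 96.0 for transcription factors, 82.2 for GTPases, 76.9 for antiviral effectors, 69.9 for class II, 67.0 for RNA sensors and 59.7 for class I. In the related lists 0 rows passed in that fit. Their medians were 65.9 for other interferon-stimulated genes, 51.9 for interferon genes and inducers, and 35.1 for receptors, kinases and brakes. Other class I genes had 68.4 and other class II genes 53.9. The epithelial markers had 0 rows past the threshold and a median of 68.8. The labels name no batch, and the effects of genotype and of array number cannot be told apart fully in 9 arrays.

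**Figure D4:**
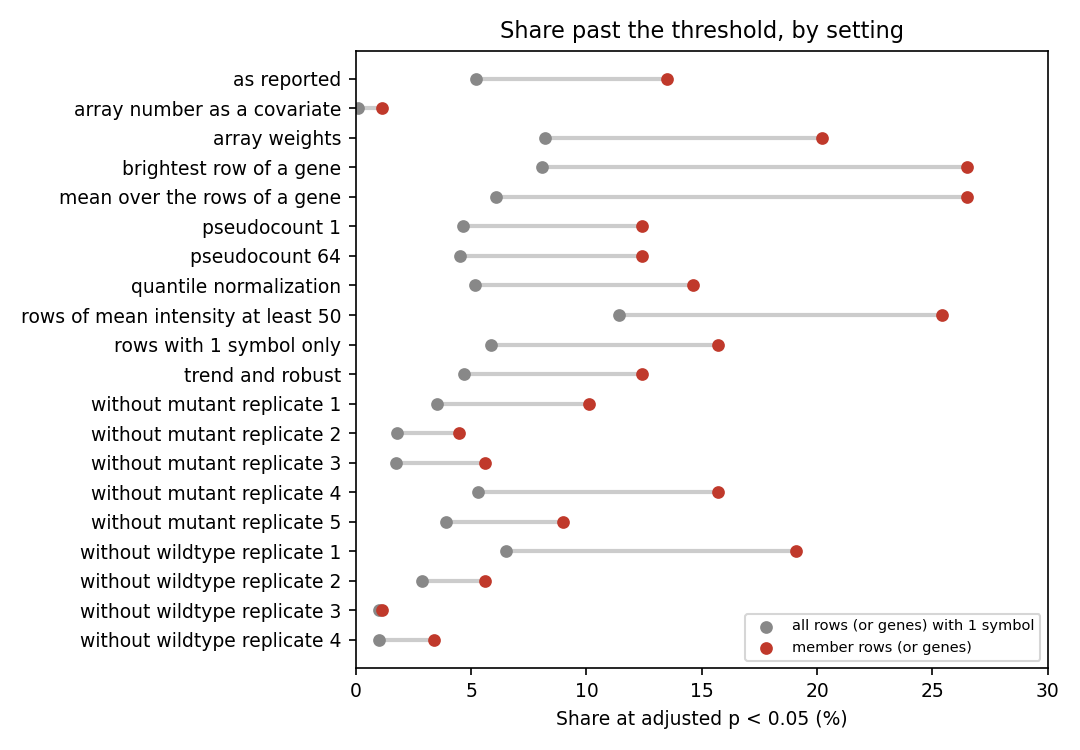
Share of rows (or genes, for the 2 settings that combine rows of a gene) at a limma adjusted p under 0.05 (x axis, percent), for members and for everything with 1 gene symbol, under each setting (y axis). The member share is 13.5% against 5.19% as reported. Without wildtype replicate 3 the 2 shares are nearly level (1.12% against 0.987%). In that setting and with array number as a covariate (1.12% against 0.0773%), the member share is a single row, that of Isg20. In the other settings drawn the member share is the larger.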

How the data were processed

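The deposited table gave 1 intensity per probe set and array on a linear scale, and the submitters' processing notes name Affymetrix Expression Console 1.1 as the authors' tool. How probes were summarised and filtered is not stated in the labels used here. Array medians of 53.8 to 54.7 were level, so nothing was normalized further. Of 45101 rows, 64 controls were left out, 932 carried several symbols and 9160 none. Intensities were tested as log2(intensity + 16) by lmFit and eBayes of limma 3.58.1, under R 4.3.3 (two-sided, with 7 residual and 2.26 prior degrees of freedom), each row separately, with Benjamini-Hochberg adjustment over 45037 rows. The fit was tested on simulated data. Ranks are of the absolute moderated t among rows with 1 symbol.

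The members and lists were chosen with earlier results of these data known. Every member is named; full values are given for rows past the threshold, for the strongest row where a role had none, and for up to 5 changed related genes per list. Related genes named without a change were chosen after their values were seen. Alternatives were other pseudocounts, normalization, weights, filters, rules for rows of a gene, array number as a covariate, and leaving out each array. The number of arrays limits the precision, and detection calls were not used.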

Additional observations from a re-analysis of the deposited data

Results flagged for a closer look

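In each of the 12 changed member rows, and in the median position over them, each genotype was searched for a lone array, by the gap to its nearest neighbour as a share of the group's range. Of 26 such groups, 2 passed Dixon's 95% value (0.829 for 4 arrays and 0.71 for 5), where chance gives about 1 in 20. In the row named Erap1, wildtype replicate 2 lay apart from the other wildtypes, with a gap of 0.9 of the range. In the row named Irgm2, wildtype replicate 1 lay apart, with a gap of 0.85 of the range.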

How the results depend on the processing

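Counts of member rows and member genes past the threshold were both 12. They stayed within 1.5 times of this with array weights (18 rows), pseudocounts of 1 and 64, quantile normalization, a trended robust fit, only rows with 1 symbol, rows of mean intensity at least 50, the brightest row of a gene and the mean over its rows. They were 1 and 1 with array number as a covariate (0.0773% of all rows) and at an adjusted p under 0.01 (0.266%). At an adjusted p under 0.1 they were 22 rows and 19 genes, with 9.85% of all rows. Leaving out 1 array gave 1 to 17 rows and 1 to 15 genes. The median percentile of 82.0 became 72.4 with array number as a covariate and 77.8 among rows of mean intensity at least 50, and ranged from 77.6 to 81.8 when 1 array was left out. Member rows whose groups do not overlap numbered 21, and 13 genes with the mean over the rows of a gene, which tests fewer features. None of the 12 changed rows turned its direction in the fits of separate rows. Of the covariate fit and of each left-out array, the cause of the change was not tested, though the latter tests fewer samples. No paired analysis was possible because the labels give no replicate numbers shared by the groups.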
